A study of Homo sapiens with 18 samples.

Results

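The HOX cluster genes are the homeobox transcription factors that lie in 4 clusters, HOXA on chromosome 7, HOXB on chromosome 17, HOXC on chromosome 12 and HOXD on chromosome 2. They were chosen by name alone, as the protein-coding Ensembl genes whose symbol is HOX, a cluster letter and a paralog number, which gave 39 of 57905 genes. HOXA holds 11 of them, HOXB 10, HOXC 9 and HOXD 9. RNA was sequenced from BE(2)-m17, a human neuroblastoma cell line, in 3 experiments that the labels call RNA1, RNA2 and RNA3. Each experiment compared 3 libraries of cells carrying the vectors pSBbi-Hyg-APP and pSBbi-Pur-ABCC1(WT), here ABCC1, with 3 libraries of cells carrying pSBbi-Hyg-APP and the empty pSBbi-Pur, here Puro. All 18 libraries, the controls included, therefore came from cells with an APP transgene, and the lines differed in a codon-optimized ABCC1, an export pump of the cell membrane. The cells were plated at 14000000 per well and lysed on day 4. Both lines were stable transfectants made with transposable vectors, and nothing in the labels says that the 3 libraries of a group came from separately transfected lines. The p-values then measure the spread between these cultures.

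HOX proteins bind DNA and set position along the body axis of the embryo. The genes of a cluster are arranged in the order of the body regions in which they act, low paralog numbers toward the head and high numbers toward the tail and the ends of the limbs. Silent HOX clusters are held by Polycomb complexes, MLL complexes keep active ones on, retinoic acid can switch them on from the low-numbered end, and HOX proteins share their DNA sites with cofactors of the PBX and MEIS families. Neuroblastoma arises from sympathetic precursors of the neural crest of the trunk.

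Depth and line identity were checked first. The assigned read pairs per library ranged from 27433393 to 57937653 in RNA1, 19577853 to 30996228 in RNA2 and 8866994 to 13332413 in RNA3. The codon-optimized ABCC1 sequence had at most 15 counts in any Puro library and at least 51035 in any ABCC1 library, as the labels say. By the methods of the study RNA1 was made with another library kit than RNA2 and RNA3, while the labels of RNA1 name both kits. Of RNA2 and RNA3, one used cryopreserved and the other newly transfected cells, and the labels do not say which. The paper presents only the newly transfected cells as a fresh transfection, so the cryopreserved cells may come from the lines of RNA1. The 3 experiments need not be 3 separate transfections. Kit, cells and experiment cannot be told apart, so levels of the 3 experiments stand only side by side. Within RNA1 ABCC1, replicates 1 and 2 were close (chi-square of 1.53 per degree of freedom between them) and replicate 3 stood apart (24.1 and 17.96 against them). Without replicate 3 the 7 HOX genes called in RNA1 kept their calls. That run leaves the closer pair and called 7827 genes in all against 6382, so kept calls there were not a strict check. The sympathetic neuroblastoma genes HAND2 (842 ± 78.9 CPM, SD, n = 3), GATA3 (545 ± 25.8) and MYCN (2888 ± 142) were abundant in RNA1 Puro. Of the markers of other cell types, KRT5 had no count in RNA1 and CDH5, CD3E and PTPRC had at most 3 in any RNA1 library, but not all of the list was absent. COL1A1, COL3A1, EPCAM and ALB had group means of 0.313 to 1.33 CPM in RNA1, and the fibroblast gene DCN had 38.4 ± 0.881 CPM in Puro and 76.4 ± 1.26 in ABCC1. The part of these markers in the HOX values was not tested.

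In RNA1 nearly all HOX transcripts came from HOXC and HOXD. There, no HOXA or HOXB gene had more than 4 counts in any library, 8 of 11 HOXA and 7 of 10 HOXB genes had none in all 6, and a count of 0 still allows up to 3 counts in a library. HOXA5, the highest HOXA gene per kilobase in RNA1 Puro, had 1, 0 and 3 counts there and 0 in each ABCC1 library, and HOXA3 had 4, 0 and 1 and again 0 in each. HOXB7, the highest HOXB gene per kilobase in RNA1 Puro, had 1, 2 and 1 counts in Puro and 3, 3 and 1 in ABCC1, and HOXB13 had 3, 2 and 1 against 4, 4 and 3. In the same libraries the highest HOXC gene reached 1829 counts and the highest HOXD gene 4047.

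**Figure D1:**
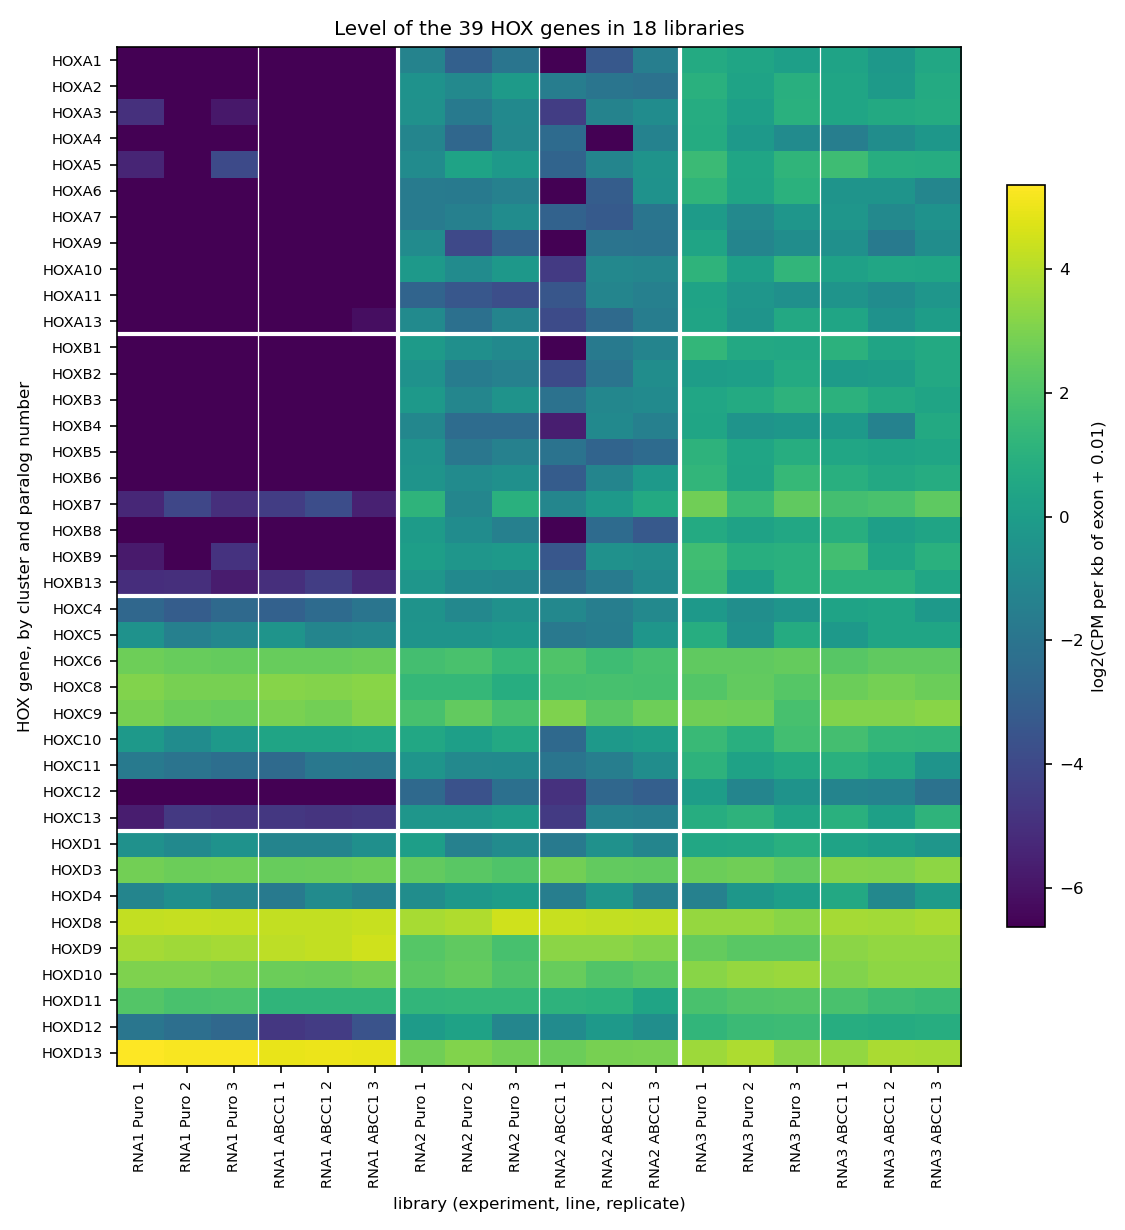
Level of each of the 39 HOX genes (rows, by cluster and paralog number) in each of the 18 libraries (columns) as log2 of CPM per kilobase of exon plus 0.01. The HOXA and HOXB rows are at or near the bottom of the scale in RNA1, and HOXC6, HOXC8, HOXC9 and the HOXD genes other than HOXD1, HOXD4 and HOXD12 are bright in all 3 experiments.

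Levels between genes were compared as CPM per kilobase of exon, where CPM scales the counts of each library to a common library size. In RNA1 Puro, HOXD13, the gene at the tail end of its cluster, was highest at 38.7 ± 2.02 CPM per kb (SD, n = 3). HOXD8 followed at 19.3 ± 0.133, HOXD9 at 13.002 ± 0.587 and HOXD10 at 7.97 ± 0.373. HOXC8 (7.84 ± 0.536) overlapped HOXD10 in its range. HOXD3 (6.56 ± 0.412), HOXC9 (6.56 ± 0.802) and HOXC6 (6.03 ± 0.435) came next with ranges that overlapped in turn, HOXD11 lay apart below them at 4.005 ± 0.319, and every other HOX gene was under 1 CPM per kb. The HOXD genes together made up 80.4% ± 0.851 of the summed HOX level per kilobase in RNA1 Puro and the HOXC genes 19.5% ± 0.865. In RNA2 Puro the HOXD share was 63.0% ± 3.97, and in RNA3 Puro it was 47.4% ± 5.83, beside 21.8% ± 0.918 for HOXC, 13.2% ± 2.90 for HOXA and 17.6% ± 3.64 for HOXB. The RNA2 and RNA3 shares include a background that lay on silent genes too, given in the next paragraph. They were not corrected for it, so they do not show that HOXA and HOXB were active there. In RNA1 ABCC1, HOXD9 (19.9 ± 2.44) reached HOXD8 (19.5 ± 0.991) and overlapped it, and HOXC8 (9.07 ± 0.274) and HOXC9 (7.81 ± 0.811) both stood above HOXD10 (6.37 ± 0.292) with no overlap.

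In RNA2 and RNA3 the silent clusters were not at 0. The 21 HOXA and HOXB genes, pooled, stood at 0.546 ± 0.153 CPM per kb in RNA2 Puro and 0.309 ± 0.191 in RNA2 ABCC1, against 0.00337 ± 0.000900 and 0.00228 ± 0.00108 in RNA1. In RNA3 they stood at 1.62 ± 0.396 in Puro and 1.39 ± 0.183 in ABCC1. The 356 protein-coding olfactory receptor genes, which serve the nose and were taken as silent here, had nearly the same pooled level in the groups of RNA2 and RNA3. They had 0.00503 ± 0.000425 CPM per kb in RNA1 Puro and 0.00405 ± 0.000313 in RNA1 ABCC1, above the HOXA and HOXB genes. They had 0.583 ± 0.0907 and 0.304 ± 0.149 CPM per kb in RNA2 Puro and ABCC1, and 1.59 ± 0.0917 and 1.26 ± 0.156 in RNA3. In each experiment the pooled olfactory receptor level was lower in every ABCC1 library than in any Puro library. The lowest background among the RNA2 libraries was that of ABCC1 replicate 1, at 0.140 CPM per kb on the olfactory receptor genes.

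**Figure D2:**
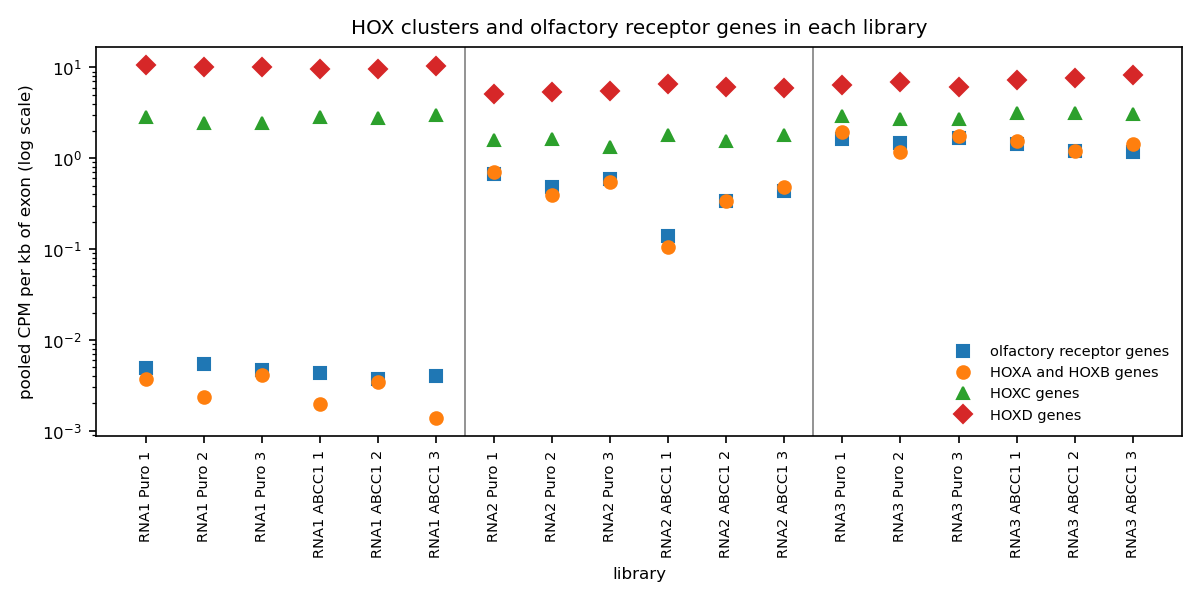
Pooled level of the olfactory receptor genes, the HOXA and HOXB genes, the HOXC genes and the HOXD genes in each library, in CPM per kilobase of exon on a log axis. The HOXA and HOXB points lie close to those of the olfactory receptor genes in every library of RNA2 and RNA3, and the HOXC and HOXD points lie above both in all 18 libraries.

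Read against that background, HOXD8, HOXD10 and HOXD13 were above the 99th percentile of the olfactory receptor genes in all 18 libraries. HOXC9 and HOXD3 were above it in 17, HOXD9 in 16, HOXC6 in 15, HOXC8 in 13 and HOXD11 in 10. HOXC5, HOXC10, HOXC11, HOXD1 and HOXD4 were above it in all 6 libraries of RNA1 and in none of the others. No HOXA gene exceeded it in any library, and of the HOXB genes HOXB7 did so in 2. The top of the order differed between the experiments. HOXD8 led in RNA2 Puro (17.3 ± 4.66 CPM per kb) with HOXD13 at 7.42 ± 0.918, and in RNA3 Puro HOXD13 (12.2 ± 2.62), HOXD10 (10.6 ± 1.17) and HOXD8 (10.4 ± 0.874) overlapped.

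HOXD9 was the one HOX gene called higher in ABCC1 in all 3 experiments. It encodes a homeodomain factor of the middle of the cluster and lies on chromosome 2 at 176987088 to 176989853 (GRCh37, plus strand). In RNA1 it had 32.5, 29.8 and 32.0 CPM in the Puro libraries and 43.7, 45.7 and 54.8 CPM in the ABCC1 libraries. RNA2 gave 11.2, 12.9 and 8.81 CPM in Puro against 23.3, 23.3 and 20.7 in ABCC1. In RNA3 the Puro libraries had 13.8, 11.9 and 11.7 CPM and the ABCC1 libraries 23.5, 25.7 and 26.1. Every ABCC1 library was above every Puro library of its experiment. In RNA from whole cultures, more cells with the transcript and more transcript per cell cannot be told apart. The log2FC was 0.61 (SE 0.08, adjusted p = 2.52e-04) in RNA1, 1.03 (SE 0.18, adjusted p = 0.00617) in RNA2 and 1.01 (SE 0.17, adjusted p = 3.75e-05) in RNA3 by edgeR's quasi-likelihood test (p-values adjusted by the Benjamini-Hochberg method over the whole table), which is 1.53-fold, 2.04-fold and 2.01-fold. The test of the difference between these log2FC values did not pass (adjusted p of the interaction = 0.779). The olfactory receptor level was lower in every ABCC1 library than in any Puro library of its experiment. As a covariate it thus cannot separate background from line, here or for the genes below. With this covariate the call was lost in RNA1 (adjusted p = 0.119) and in RNA2 (adjusted p = 0.319). In RNA2 it was also lost without Puro replicate 3 (adjusted p = 0.0924) or ABCC1 replicate 2 (adjusted p = 0.0655) and with the HOXA and HOXB level subtracted (adjusted p = 0.0718), and in RNA3 it held in 13 of 13 alternatives.

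Relative to its neighbours HOXD9 was higher in each ABCC1 library than in any Puro library of its experiment. These ratios use the same HOXD9 values and are not separate evidence, and in RNA1 HOXD10 itself was lower in ABCC1 (0.80-fold). As a ratio of CPM per kilobase to HOXD10, which lies on its tail side, HOXD9 went from 1.64 ± 0.129 in Puro to 3.12 ± 0.264 in ABCC1 in RNA1. The ratio went from 0.904 ± 0.0298 to 1.87 ± 0.350 in RNA2 and from 0.494 ± 0.106 to 1.10 ± 0.0300 in RNA3. To HOXD8, on the head side, it went from 0.674 ± 0.0346 to 1.02 ± 0.0727, from 0.281 ± 0.104 to 0.480 ± 0.0269 and from 0.498 ± 0.0388 to 0.771 ± 0.0477. With 3 libraries in each line, the smallest p an exact permutation test of such a ratio could reach is 0.1. Of its length, 3.52% of exon bases are shared with another gene, the antisense HOXD-AS2, and read pairs in shared exons were not assigned to either.

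**Figure D3:**
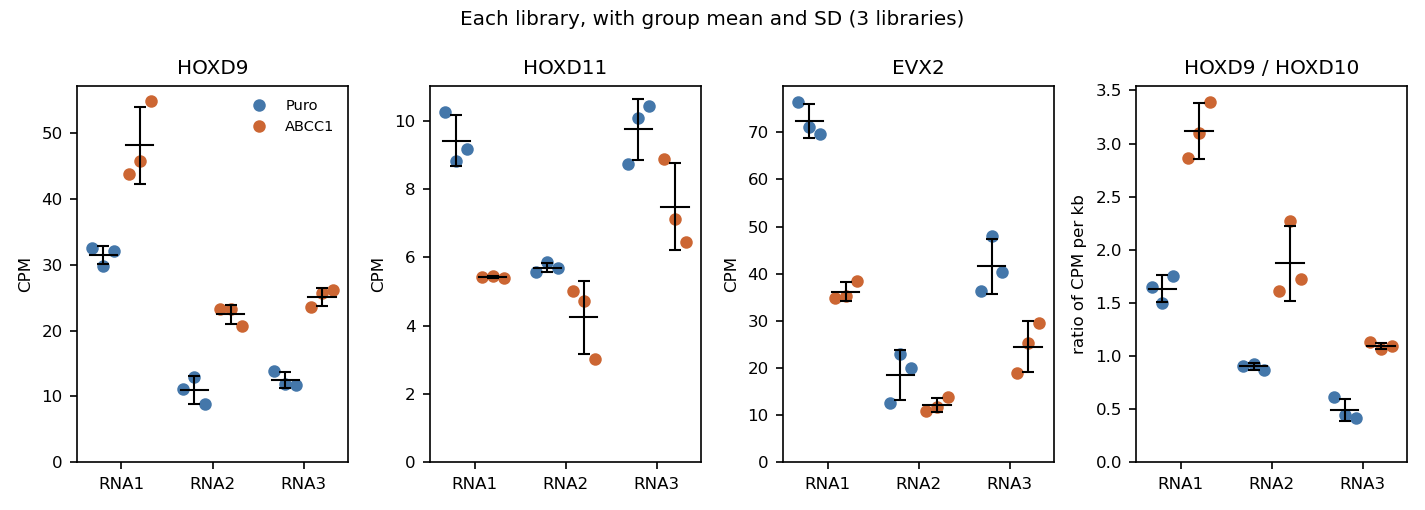
CPM of HOXD9, HOXD11 and EVX2, and the ratio of HOXD9 to HOXD10 in CPM per kilobase, in each library, with the group mean and SD of 3 libraries. The HOXD9 points of ABCC1 lie above those of Puro in all 3 experiments, the EVX2 points lie below them in RNA1 and RNA3, and the ratio does not overlap between the lines.

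The tail end of HOXD moved the other way in RNA1. HOXD10, HOXD11, HOXD12 and HOXD13, neighbours on chromosome 2, were all lower in ABCC1 there, and in RNA2 and RNA3 none of them was called. HOX genes with these numbers pattern the lumbosacral trunk and the limbs. HOXD11 had 10.3, 8.81 and 9.17 CPM in Puro and 5.43, 5.46 and 5.40 CPM in ABCC1, with a log2FC of −0.80 (SE 0.08, adjusted p = 4.19e-05 by edgeR's quasi-likelihood test), a call that held in 13 of 13 alternatives. HOXD13 had 91.9, 84.2 and 83.9 CPM against 70.7, 71.7 and 69.8, a log2FC of −0.29 (SE 0.05, adjusted p = 6.99e-04). HOXD10 had 21.9, 22.1 and 20.3 CPM against 16.99, 16.43 and 17.98, a log2FC of −0.32 (SE 0.06, adjusted p = 0.00257). The 2 groups did not overlap for any of these genes. HOXD12 was near the limit of detection, with 20, 10 and 9 counts in Puro and 3, 2 and 8 in ABCC1 (log2FC −2.07, SE 0.43, adjusted p = 0.00331). With the olfactory receptor level as a covariate HOXD11 kept its call (adjusted p = 0.0152), and the calls of HOXD10 (0.323), HOXD12 (0.157) and HOXD13 (0.0900) were lost. HOXD10 and HOXD11 share 16.8% and 19.2% of their exon bases with each other, and HOXD12 and HOXD13 share none with any gene.

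The upstream sequences of genes in this run that fell are shown because they moved together and stand within a short stretch of the chromosome. They are the bases just before the RefSeq start of transcription on the plus strand of chromosome 2 in GRCh38.p14, not the build of the counts, namely chr2:176092471-176092720 for HOXD13, chr2:176099545-176099729 for HOXD12 and chr2:176107030-176107279 for HOXD11. The HOXD12 stretch ends where an annotated exon begins, and that of HOXD10 is left out since 199 of its 250 bases are annotated as exon. Capitals mark matches, on either strand, to TATAAA (the core of a TATA box), CCAAT (the CCAAT box) or TGATNNAT (a pairing site of HOX and PBX proteins), and the TATAAA matches of HOXD13 on the opposite strands overlap.
HOXD13: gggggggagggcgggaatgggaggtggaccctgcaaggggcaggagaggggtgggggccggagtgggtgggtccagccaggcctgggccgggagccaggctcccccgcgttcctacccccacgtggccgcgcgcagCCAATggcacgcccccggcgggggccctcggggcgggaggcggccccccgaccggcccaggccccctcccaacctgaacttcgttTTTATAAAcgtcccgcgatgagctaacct
HOXD12: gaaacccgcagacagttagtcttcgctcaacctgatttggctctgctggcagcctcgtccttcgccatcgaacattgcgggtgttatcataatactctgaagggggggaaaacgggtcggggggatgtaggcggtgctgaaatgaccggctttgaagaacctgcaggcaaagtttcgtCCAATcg
HOXD11: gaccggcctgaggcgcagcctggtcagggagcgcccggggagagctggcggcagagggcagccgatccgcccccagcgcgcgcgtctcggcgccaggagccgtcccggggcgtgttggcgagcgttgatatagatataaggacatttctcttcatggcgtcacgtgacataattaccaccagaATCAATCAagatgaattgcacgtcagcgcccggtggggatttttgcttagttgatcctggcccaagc
HOXD13 held TATAAA and CCAAT, HOXD12 held CCAAT and HOXD11 held TGATNNAT, and no motif was found in all of them. Among 35116 RefSeq windows of the same 250 bases, 10.7% held TATAAA, 32.0% held CCAAT and 6.47% held TGATNNAT. The table held 27 windows for 20 of the 39 HOX genes, with the same window listed for HOXC4 and for HOXC5. Of the 27 windows, 5 had TATAAA, 18 had CCAAT and 3 had TGATNNAT. They had a median of 19 CG dinucleotides against 11 over all windows, and the windows of HOXD13, HOXD12 and HOXD11 had 21, 16 and 23, counted for HOXD12 over the whole window with the 65 exon bases that are not printed.

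In RNA2 and RNA3 no gene of this run passed the test. The biological coefficient of variation was 35.3% in RNA2 and 19.7% in RNA3 against 5.67% in RNA1, and a gene that was not called there is not shown to be unchanged. HOXD11 had 5.57, 5.86 and 5.68 CPM in RNA2 Puro and 5.004, 4.72 and 3.03 in RNA2 ABCC1 (log2FC −0.43, SE 0.31, adjusted p = 0.419), with ABCC1 below Puro and no overlap. Its RNA3 means were 9.74 ± 0.890 and 7.49 ± 1.26 CPM (log2FC −0.38, SE 0.23, adjusted p = 0.457), with overlapping groups. The log2FC of HOXD12 was −0.36 (SE 0.55, adjusted p = 0.724) in RNA2 and −0.64 (SE 0.32, adjusted p = 0.323) in RNA3, where its means were 5.02 ± 0.567 and 3.21 ± 0.108 CPM and the ABCC1 libraries lay below those of Puro with no overlap. No library of RNA2 or RNA3 had HOXD12 above the 99th percentile of the olfactory receptor genes, and none of RNA3 had HOXD11 above it. That background was itself lower in ABCC1 (1.26 against 1.59 CPM per kb in RNA3), and its part in these values was not tested. HOXD10 had log2FC values of 0.01 (SE 0.19) and −0.16 (SE 0.16), and HOXD13 of −0.06 (SE 0.17) and 0.07 (SE 0.17), all with an adjusted p of at least 0.696. In the test of a difference between experiments HOXD12 had an adjusted p of 0.593 and HOXD11 one of 0.898, so a difference of these effects between RNA1 and the others was not shown.

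EVX2, a homeobox gene 8.978 kb beyond HOXD13, fell more in RNA1 than any of these but HOXD12. It had 76.5, 71.1 and 69.5 CPM in RNA1 Puro and 34.9, 35.3 and 38.5 in RNA1 ABCC1, a log2FC of −0.999 (SE 0.06, adjusted p = 5.02e-07 by edgeR's quasi-likelihood test). In RNA3 it had 36.4, 47.9 and 40.3 CPM in Puro and 18.9, 25.3 and 29.5 in ABCC1, a log2FC of −0.76 (SE 0.17, adjusted p = 0.00208), and both calls held in 13 of 13 alternatives. The RNA2 libraries gave 12.7, 22.95 and 19.99 CPM against 10.9, 11.7 and 13.9, which overlap (log2FC −0.61, SE 0.20, adjusted p = 0.0957). On the far side of the HOXD cluster, MTX2, a mitochondrial membrane gene 78.4 kb away, was not called in any experiment (58.6 ± 0.0692 CPM in RNA1 Puro).

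**Figure D4:**
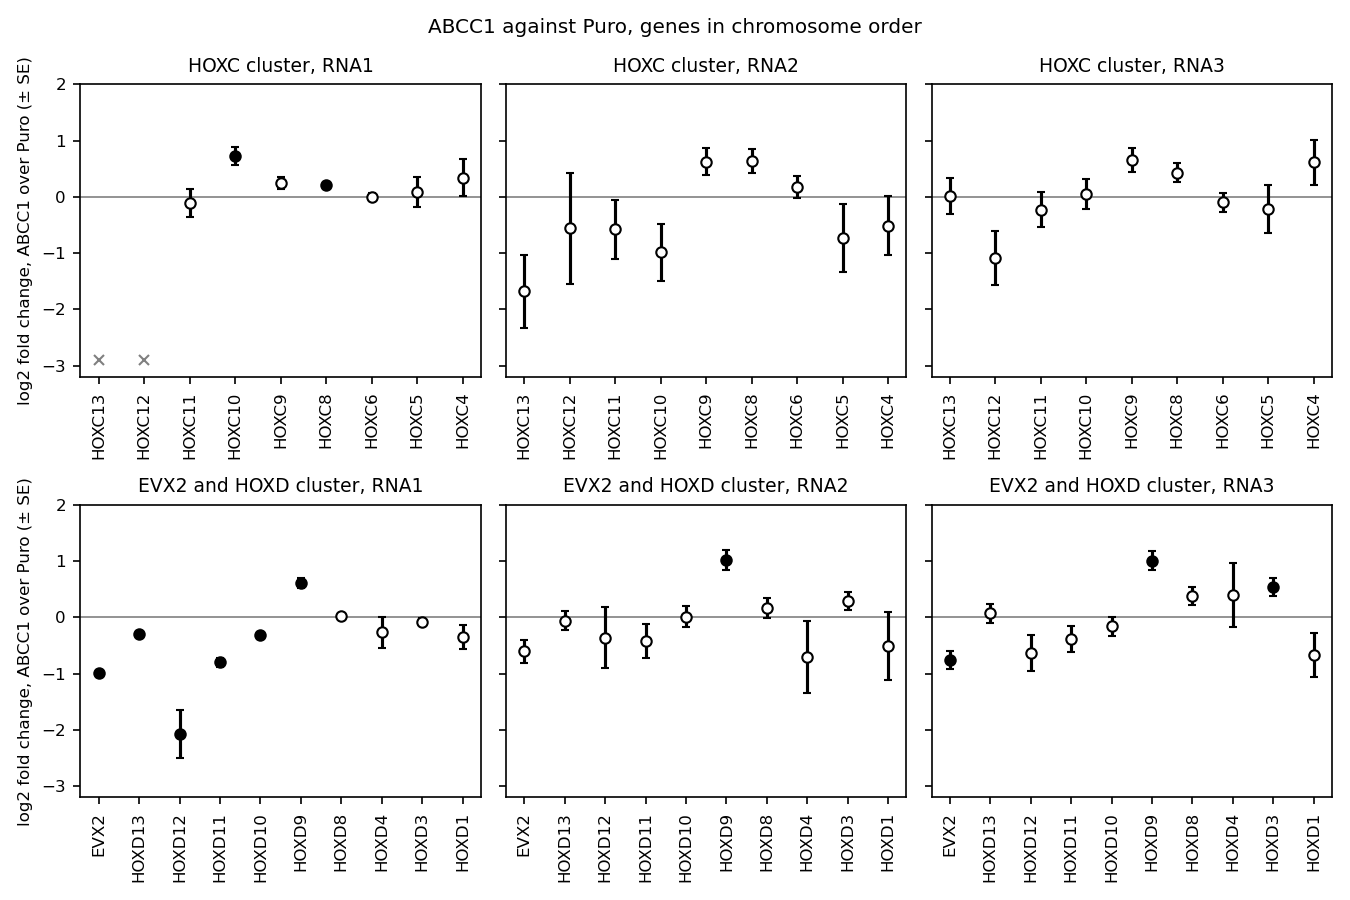
log2FC of ABCC1 over Puro with its standard error for the HOXC genes (upper row) and for EVX2 and the HOXD genes (lower row) in chromosome order, by experiment. Filled points had an adjusted p of at most 0.05, open points did not, and crosses are genes that did not pass the filter on low counts. HOXD9 is filled and positive in all 3 experiments, and EVX2 to HOXD10 are filled and negative in RNA1.

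At the head side of HOXD9, HOXD8 did not pass the test. It had 50.7 ± 0.349 CPM in RNA1 Puro and 51.2 ± 2.60 in RNA1 ABCC1 (log2FC 0.02, SE 0.05). Its log2FC was 0.16 (SE 0.18) in RNA2 and 0.38 (SE 0.16, adjusted p = 0.219) in RNA3. HOXD3, a low-numbered gene of the cluster, had 35.7, 37.6 and 30.3 CPM in RNA3 Puro and 47.9, 46.6 and 55.4 in RNA3 ABCC1, with no overlap (log2FC 0.53, SE 0.16, adjusted p = 0.0474). That call held in 7 of 13 alternatives and was lost without Puro replicate 1 (adjusted p = 0.131), Puro replicate 3 (0.317), ABCC1 replicate 2 (0.146) or ABCC1 replicate 3 (0.334), with no filter on low counts (0.0733) and with the covariate (0.339). In RNA1 HOXD3 had 36.5 ± 2.29 and 34.6 ± 1.84 CPM (log2FC −0.08, SE 0.06), and in RNA2 its log2FC was 0.28 (SE 0.16, adjusted p = 0.308). HOXD3 shares 28.5% of its exon bases with other genes and HOXD4 80.5%.

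In the HOXC cluster, HOXC8 and HOXC10 rose in RNA1. HOXC8, which patterns the thoracic trunk, had 28.5, 25.4 and 25.3 CPM in RNA1 Puro and 30.5, 29.7 and 31.5 in RNA1 ABCC1 (log2FC 0.21, SE 0.06, adjusted p = 0.0218). The RNA1 call was lost without Puro replicate 2 (adjusted p = 0.106) or Puro replicate 3 (0.116) and with the covariate (0.403). In RNA2 its means were 7.75 ± 1.496 and 12.1 ± 0.225 CPM (log2FC 0.64, SE 0.21, adjusted p = 0.0990) and in RNA3 16.5 ± 2.14 and 22.3 ± 1.46 CPM (log2FC 0.43, SE 0.17, adjusted p = 0.173), with no overlap in either. Relative to HOXC6, its neighbour toward the head end, the level of HOXC8 per kilobase went from 1.30 ± 0.0183 to 1.501 ± 0.0120 in RNA1, from 0.715 ± 0.0290 to 1.01 ± 0.174 in RNA2 and from 0.892 ± 0.133 to 1.29 ± 0.0802 in RNA3, again with no overlap. HOXC10 had 2.07, 1.32 and 2.03 CPM in RNA1 Puro and 2.99, 2.945 and 3.19 in RNA1 ABCC1 (log2FC 0.73, SE 0.15, adjusted p = 0.00395), a call that the covariate ended (adjusted p = 0.423). In RNA2 and RNA3 HOXC10 lay within the range of the olfactory receptor genes, with log2FC values of −0.99 (SE 0.51, adjusted p = 0.265) and 0.05 (SE 0.27), and in RNA2 its ABCC1 libraries all lay below those of Puro, opposite to RNA1. HOXC6 itself had a log2FC of 0.00 (SE 0.07) in RNA1. HOXC9, which was not called, had log2FC values of 0.25 (SE 0.10, adjusted p = 0.0755), 0.63 (SE 0.24, adjusted p = 0.147) and 0.66 (SE 0.21, adjusted p = 0.0600) in RNA1, RNA2 and RNA3, with groups apart in RNA3 and overlapping in the others.

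Counted over the family, 16 of the 39 HOX genes passed the filter on low counts in RNA1, 7 of HOXC and all 9 of HOXD. Of these, 3 were called higher (HOXD9, HOXC8 and HOXC10) and 4 lower (HOXD10 to HOXD13), at an adjusted p of at most 0.05. Among all 16995 genes tested in RNA1, 17.9% were called higher and 19.7% lower, so the share of HOX genes called, 43.8%, lay near the 37.6% of all genes. The groups did not overlap for the same 7 genes, against 50.4% of all genes. In RNA2, 38 HOX genes were tested, 1 was called higher (HOXD9) where 1.25% of all genes were, and none lower where 0.458% were (1.70% in either direction). Groups were apart for 12 HOX genes in RNA2, with 29.8% of all genes apart. In RNA3 all 39 were tested, 2 were called higher (HOXD9 and HOXD3) where 2.03% of all genes were, and none lower where 0.767% were (2.80% in either direction), and 11 had groups apart with 19.5% of all genes apart.

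The median log2FC of the HOX genes tested was −0.04 in RNA1, −0.64 in RNA2 and −0.14 in RNA3, beside 0.01, −0.19 and −0.09 for all genes. The HOXA and HOXB genes, which were in the range of the olfactory receptor background, held most of the negative values. All 10 HOXA genes tested in RNA2 and all 11 in RNA3 had a negative log2FC, as did 9 and 10 of the 10 HOXB genes. The pooled olfactory receptor level, too, was lower in every ABCC1 library than in any Puro library of RNA2 and of RNA3. The signs in RNA3 depend on the scaling of the libraries, and with another one HOXA5 was at 0.05. The part of the background reads in these values was not tested. Another scaling of the libraries moved the median of all genes in RNA2 from −0.19 to −0.08, and relative to that median HOXD9 stood at 1.21 and 1.22. Over the 3 experiments, a difference in the ABCC1 effect was called for 0 of 39 HOX genes by edgeR's interaction test, where 1.19% of 46225 genes were called. At an unadjusted p of at most 0.05 there were 5, the smallest adjusted p was 0.105 (HOXC10), and DESeq2 called 0 as well.

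Other genes inside the silent clusters were at the floor in RNA1, where each of the 12 such genes of HOXA and of the 15 of HOXB had at most 3 counts in any library. HAGLR, a long noncoding RNA at the head end of HOXD, had 32.4 ± 0.786 CPM in RNA1 Puro and 31.1 ± 0.396 in RNA1 ABCC1. HOXD-AS2, an antisense RNA with exon bases in common with HOXD9, was called lower in RNA1, from 6.37 ± 0.182 to 4.87 ± 0.396 CPM (log2FC −0.39, SE 0.09, adjusted p = 0.00751). In RNA2 its log2FC was −0.69 (SE 0.30, adjusted p = 0.194) and in RNA3 0.14 (SE 0.26, adjusted p = 0.853). Counting took no account of strand, so reads of an antisense gene and its partner could not be told apart where they overlap. HOTAIR, a noncoding RNA of the HOXC cluster, had 4.10 ± 0.239 and 4.73 ± 0.592 CPM in RNA1 (adjusted p = 0.197). It was lower in every ABCC1 library than in any Puro library of RNA2 (log2FC −1.10, SE 0.47, adjusted p = 0.183) and RNA3 (log2FC −0.70, SE 0.27, adjusted p = 0.148), and neither passed the test. Of the list of HOX cluster noncoding RNAs, 0 were called higher and 1 lower of 4 tested in RNA1 (37.6% of all genes were called), and none of 16 and 17 tested in RNA2 and RNA3 (1.70% and 2.80%). Its median log2FC was 0.05, −1.04 and −0.24, beside 0.01, −0.19 and −0.09 for all genes. In RNA2 the HOXA genes, which lay at background, had a median of −0.95.

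Beyond the other clusters, SKAP2, a signalling adaptor 97.8 kb from HOXA, fell in RNA1 from 1.00 ± 0.0276 to 0.389 ± 0.108 CPM (log2FC −1.32, SE 0.23, adjusted p = 0.00120). CALCOCO1, 211 kb from HOXC, rose (log2FC 0.34, adjusted p = 0.00135), while SMUG1, a uracil glycosylase on the other side of HOXC (log2FC −0.28, adjusted p = 0.0244), and CALCOCO2 beside HOXB (log2FC −0.21, adjusted p = 0.00735) fell. SNX11 and HIBADH were not called in any experiment. The flanking genes were the nearest protein-coding genes on either side of a cluster with counts that passed the filter, so silent genes may lie closer. Of these 8 genes 5 were called in RNA1, where 37.6% of all genes were, EVX2 alone in RNA3 (2.80% of all genes), and none in RNA2 (1.70%).

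Of the cofactors that bind DNA with HOX proteins, 8 of 9 PBX, MEIS and PKNOX genes passed the filter in RNA1, and PKNOX2 had at most 7 counts. Of the 8, 2 were called higher and 5 lower, where 17.9% and 19.7% of all genes were, with a median log2FC of −0.23. MEIS2 went from 227 ± 3.17 to 190 ± 7.93 CPM (log2FC −0.26, adjusted p = 7.24e-04) and PBX3 from 86.8 ± 2.65 to 69.2 ± 0.734 (log2FC −0.33, adjusted p = 1.64e-04). None of the 9 tested was called in RNA2 or RNA3, where the medians were −0.05 and −0.21.

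Of the complexes that keep HOX clusters silent, Polycomb repressive complex 2 had 1 gene higher (EZH1) and 3 lower (EZH2, SUZ12 and RBBP7) of 11 tested in RNA1 (median log2FC −0.10), a share near the 37.6% of all genes. RBBP7, a histone-binding subunit, went from 134 ± 1.55 to 119 ± 4.92 CPM (log2FC −0.18, adjusted p = 0.00720), and RBBP4 (188 ± 7.70 CPM in RNA1 Puro) and JARID2 (111 ± 0.935) were not called. Polycomb repressive complex 1 had 0 higher and 2 lower of 11 (median 0.00), beside 17.9% and 19.7% of all genes. Its member CBX6 had 246 ± 8.24 CPM in RNA1 Puro and was not called. None of either complex was called in RNA2 (medians 0.23 and 0.24) or RNA3 (medians −0.03 and 0.27). The MLL complex and other activators had 1 higher and 3 lower of 11 in RNA1 (median 0.00), again near the 37.6% of all genes. MEN1, the menin subunit that tethers MLL, rose in RNA1 (log2FC 0.37, adjusted p = 0.00247) and in RNA2 (log2FC 0.70, adjusted p = 0.0294), and it was the one member called in RNA2 (median 0.29), with none in RNA3 (median 0.17). The RNA2 call of MEN1 was lost without Puro replicate 1 or 3 or ABCC1 replicate 1 or 2 (adjusted p of 0.0610 to 0.191), with the covariate (0.774) and with the HOXA and HOXB level subtracted (0.114).

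Among the upstream regulators, CRABP2 rose in all 3 experiments. It encodes a carrier that delivers retinoic acid to its nuclear receptors. It had 135, 132 and 126 CPM in RNA1 Puro and 247, 237 and 217 in RNA1 ABCC1 (log2FC 0.84, adjusted p = 1.02e-06). RNA2 gave 38.7, 35.4 and 31.8 CPM against 65.8, 53.1 and 57.8 (log2FC 0.74, adjusted p = 0.0237), and RNA3 67.3, 97.1 and 58.7 against 115, 131 and 131 (log2FC 0.75, adjusted p = 0.00600). No group overlapped its partner. The RNA2 call was lost without Puro replicate 2 or 3 or ABCC1 replicate 1 or 2 (adjusted p of 0.0531 to 0.159), and the RNA3 call without Puro replicate 1 or 3 or ABCC1 replicate 2 or 3 (0.0717 to 0.150). With the covariate both were lost (0.694 and 0.290), as was the RNA2 call with the HOXA and HOXB level subtracted (0.148). Of the list, 2 genes were higher (CRABP2 and EGR2) and 2 lower (RARA and RARB) of 11 tested in RNA1, 1 higher of 17 in RNA2 and 2 higher of 19 in RNA3, where 37.6%, 1.70% and 2.80% of all genes were called, with medians of 0.02, −0.25 and −0.26. RARB, a retinoic acid receptor, went from 7.69 ± 0.563 to 4.58 ± 0.208 CPM in RNA1 (log2FC −0.75, adjusted p = 1.08e-04) and was not called in RNA2 (log2FC −0.67) or RNA3 (log2FC −0.45). RARA, another, had a log2FC of −0.44 in RNA1 (adjusted p = 0.00570). CDX2 and CDX4, which switch on HOX genes in the embryo, had no count in RNA1.

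Markers of cell state were read against the same shares of all genes, 37.6% called in RNA1, 1.70% in RNA2 and 2.80% in RNA3. Of 9 adrenergic neuroblastoma markers, 2 were higher and 5 lower in RNA1 (median log2FC −0.33), none was called in RNA2 (0.27), and 1 was higher and 2 lower in RNA3 (−0.08). DBH (log2FC −0.83 in RNA1 and −0.63 in RNA3) and PHOX2A (−0.48 and −0.68) fell in both, and TH, the first enzyme of catecholamine synthesis, rose (0.46 and 0.63). Their RNA3 calls held in 5, 7 and 8 of 13 alternatives and were each lost without Puro replicate 3, ABCC1 replicate 2 or ABCC1 replicate 3 (adjusted p of 0.0545 to 0.242). Those of DBH and PHOX2A were also lost without ABCC1 replicate 1 (0.0908 and 0.108) and with RLE size factors (0.119 and 0.0969), that of DBH without Puro replicate 2 (0.133), with DESeq2 (0.0501) and with no filter on low counts (0.0560), those of PHOX2A and TH without Puro replicate 1 (0.0589 and 0.202), and that of TH with the covariate (0.132). Of the mesenchymal markers, 3 were higher and 2 lower of 8 tested in RNA1 (median 0.33), with none of 9 called in RNA2 (−0.21) or RNA3 (−0.05). VIM, an intermediate filament gene, had 201 ± 3.99 and 199 ± 7.57 CPM in RNA1, and PRRX1 fell there (log2FC −0.27, adjusted p = 0.00103). Of the markers of other cell types, 2 were higher of 5 tested in RNA1 (median −0.21), none of 9 in RNA2 (−0.85) and 1 lower of 9 in RNA3 (−0.36).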

How the data were processed

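Read pairs were aligned by the authors with STAR 2.7.3a and counted per gene with featureCounts 2.0.0 on the exons of Ensembl release 74 (GRCh37), and the deposited counts are whole numbers without normalization. The command in the file headers sets no strand option, so counting ignored strand. Each file lists 57905 Ensembl genes, 92 spike-ins (83 counts over all 18 libraries, left out of library sizes) and 6 vector sequences. Symbols came from gene name tables and matched 39880 IDs. No column of per-sample values was left unused.

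Each experiment was fitted alone in R 4.3.3 with edgeR 4.0.16, using filterByExpr at a minimum count of 10, TMM and the robust quasi-likelihood test. P-values are two-sided and adjusted over all genes and vector sequences tested by the Benjamini-Hochberg method, and a gene was called at 0.05. One fit of all 18 libraries tested the interaction of experiment and line. CPM values use TMM library sizes. Named were the HOX genes called in any experiment, the highest of each cluster in RNA1 Puro and those above the 99th percentile of olfactory receptor genes in all libraries, list members called the same way in 2 experiments or else the 2 most abundant, other cluster genes called in RNA1, and the nearest flanking genes. Single values of some list members are not reported here. HOXC6, HOXC9, HOXA3, HOXB13, HOTAIR, RBBP7, RARA, RARB, EGR2 and further genes given by level were added after their values were seen. The members, the 9 gene lists and the tests were chosen with earlier results of these data known. Replicate pairs gave a chi-square of 1.53 to 26.1 per degree of freedom, above counting noise in each, so all were kept. The scripts were tested on simulated data with known changes. Limits of 3 counts cover counting error only, because no molecular identifiers were used and read pairs need not be separate molecules. Alternatives were DESeq2 1.42.0, RLE size factors, other filters, the replicate block, leaving out each library and the olfactory receptor level as a covariate. Subtracting the HOXA and HOXB level was added after the data were seen.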

Additional observations from a re-analysis of the deposited data

Results flagged for a closer look

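For 2 of the genes named, markers of fibroblasts that were included as a check of other cell types, the difference between ABCC1 and Puro was not the same in the 3 experiments by edgeR's interaction test with Benjamini-Hochberg adjustment. DCN, which encodes the matrix protein decorin, had an adjusted p of 0.00697. It went from 38.4 ± 0.881 to 76.4 ± 1.26 CPM (SD, n = 3) in RNA1, where every ABCC1 library was above every Puro library. In RNA2 it had 16.5, 16.9 and 26.6 CPM in Puro and 21.9, 27.0 and 23.0 in ABCC1. In RNA3 it had 13.3, 14.6 and 17.5 CPM in Puro and 15.2, 13.83 and 14.52 in ABCC1. COL1A1, a collagen gene, had an adjusted p of 0.00379. It had 0.805, 0.881 and 0.634 CPM in RNA1 Puro and 1.22, 0.930 and 1.84 in RNA1 ABCC1, against 37.1, 32.8 and 41.1 in RNA3 Puro and 31.4, 23.6 and 25.1 in RNA3 ABCC1. No HOX gene had such a call.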

How the results depend on the processing

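The pooled olfactory receptor level as a covariate leaves fewer degrees of freedom and, being lower in ABCC1, cannot separate background from line. It gave 0 HOX genes higher and 1 lower in RNA1 (1255 genes called in all), 0 higher in RNA2 (9 genes) and 1 higher in RNA3. Subtracting the HOXA and HOXB level gave 0 HOX genes higher in RNA2 (37 genes). DESeq2 called 2 HOX genes higher in RNA2 and 2843 genes there and 1591 in RNA3, and 87.0% and 91.1% of these were higher, against 73.1% and 72.6% of the 581 and 1021 genes of the reported test. RLE size factors called 1086 genes in RNA2, and 82.9% of the RNA3 calls were then higher. This share was 44.4% in RNA2 with the covariate or the strict filter and 48.6% with the added subtraction, and with the covariate 34.0% in RNA1 and 24.4% in RNA3. Without the filter, 1 HOX gene was lower in RNA2 (1402 genes) and 1 higher in RNA3, and at least 10 counts in every library gave 1725 genes in RNA3. Leaving out a library gave 8 to 1359 genes in RNA2 and 394 to 2762 in RNA3, 0 to 1 HOX genes higher in RNA2, 1 to 4 higher in RNA3 and 0 to 1 lower there. Why these counts moved was not tested.

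By the methods of the study cells were plated weekly, so libraries of both lines may share a week, but the labels do not tie a replicate number to one. The mean correlation of the deviations of same-numbered samples was −0.04 in RNA1, −0.06 in RNA2 and 0.04 in RNA3, which does not show that the numbers pair the samples. A replicate block in the fit called 5356, 710 and 1885 genes, with 3 HOX genes higher and 4 lower in RNA1, 1 higher in RNA2 and 3 higher in RNA3.

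Signs changed for HOX genes that were not called. HOXA5 in RNA3 was at 0.0541 with RLE. HOXC10 in RNA2 was at 0.42 with the covariate and HOXD8 in RNA2 at −0.0491 with the subtraction. HOXD10 in RNA2 was at −0.11 with the strict filter, −0.23 with the covariate and −0.16 with the subtraction. HOXD13 was at 0.0663 with DESeq2, 0.0389 with RLE and 0.0629 with the covariate in RNA2, and at −0.36 with the covariate and −0.0216 with the subtraction in RNA3. Leaving out a library gave −0.0276 to 0.0391 for HOXD8 in RNA1, −0.11 to 0.14 for HOXD10 and −0.103 to 0.0526 for HOXD13 in RNA2, and −0.14 to 0.26 for HOXC10 and −0.0373 to 0.246 for HOXD13 in RNA3. HOXD9 kept its sign in every alternative run. The libraries of RNA3 had the fewest assigned read pairs, and the biological coefficient of variation was 5.67% in RNA1, 35.3% in RNA2 and 19.7% in RNA3.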
